A study of Homo sapiens with 8 samples.

Results

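The 43 genes described here encode the machinery that brings proteins into mitochondria and then folds, cleaves or degrades them. The list of names was drawn up with earlier results of these data known, and its members were then found by gene symbol with no threshold on measured values. Of the 43, 39 had a named row among 17492 genes tested, with 1 row each, and TOMM6, TOMM40L, PAM16 and PHB2 had none and are not analysed here. The samples were subcutaneous tumours of SkMel147, an established human melanoma line, in BALB/c nude mice, a strain without mature T cells that keeps its other leukocytes. All tumours were treated from a volume of 100 mm3 and taken after 7 days, with 4 mice on vehicle and 4 on doxycycline in the drinking water, which switches on Omomyc in the tumour cells. Omomyc is a dominant-negative fragment of MYC. No animal age, promoter or clone is stated in the labels, and no group received doxycycline without the Omomyc system. Doxycycline also acts on mitochondrial ribosomes, so the drug and Omomyc cannot be told apart in these groups.

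Nearly all mitochondrial proteins are made in the cytosol. The TOM complex of the outer membrane recognises and admits them, small TIM chaperones escort hydrophobic ones across the intermembrane space, and the TIM22 and TIM23 complexes insert them into or pass them through the inner membrane. A motor built on the mitochondrial HSP70 pulls proteins into the matrix, where the presequence is cut off and the HSP60 and HSP10 chamber folds them, while AAA proteases remove failures. Growing tumour cells make heavy use of this machinery, and several of its genes are known MYC targets.

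Each tumour gave 1 Affymetrix array, deposited as RMA values on the log2 scale, where a difference of 1 is a factor of 2. Array medians lay between 5.02 and 5.13, and pairs of arrays within a group had r of 0.961 to 0.982 over the genes tested, a description only. Vehicle replicate 2 and doxycycline replicate 4 had the highest lower quartiles (3.20 and 3.23, against 3.03 to 3.10 in the other arrays). MYC, whose probes may also read the transgene, was at 5.63 ± 0.34 with vehicle and 6.81 ± 0.96 with doxycycline (SD, n = 4). The difference did not pass (limma adjusted p = 0.0987). The doxycycline arrays read 5.49, 7.22, 7.74 and 6.78 for MYC, and only replicate 1 lay inside the vehicle range of 5.26 to 5.92. Of the 7 measured melanocyte markers, 0 passed limma's test. With vehicle, TYR (2.21) and MLANA (2.93) lay below the lower quartile of every array, and PMEL was at 3.26. SOX10 (6.53), PAX3 (6.004) and MITF (5.22) lay above the array medians with vehicle. S100B was at 4.06 with vehicle, with a log2 fold change of 0.75 (limma adjusted p = 0.183). Probes target human transcripts, and mouse cells of the host can give signal only by cross-hybridisation. Of the measured markers of endothelium, leukocytes, keratinocytes, adipocytes, muscle and red cells, 0 passed limma's test. The leukocyte list averaged 3.37 to 3.92 in vehicle and 3.87 to 4.60 in doxycycline arrays, with a log2 fold change of 1.82 for CD14 (limma adjusted p = 0.0507) and of 0.83 for CD68, at 8.15 with vehicle and 8.98 with doxycycline (limma adjusted p = 0.128). PTPRC, the general leukocyte marker, was below 3 in both groups' means. Their part in the results below was not tested.

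Of the 39 measured genes, 6 fell and 0 rose with doxycycline (limma, Benjamini-Hochberg adjusted p under 0.05 over all genes). That is 15.4% falling, where 6.03% of all genes tested fell and 4.75% rose. Without the dimmest 40% of genes, the same 6 of 39 fell and the share of all genes that fell was 11.1%, so this contrast depends on which genes it is set against. At an unadjusted p under 0.05 there were 10 of the 39 (25.6%), close to the 23.9% of all genes, and of these 10 only SPG7 was higher with doxycycline. The 6 were the matrix chaperone genes HSPD1, TRAP1 and HSPE1, the inner membrane protease gene AFG3L2, the small TOM subunit gene TOMM5 and the motor's exchange factor gene GRPEL1. The median log2 fold change of the 39 was -0.15, against 0.04 for all genes tested. Centring each array on the cytosolic ribosomal protein genes, which had a median of -0.19 themselves, moved every gene up by 0.20. The median of all genes was then 0.24 and that of the 39 was 0.05, 5 of them fell and 1 rose, and the share of all calls that were falls went from 55.9% to 31.9%. In bulk tumours, fewer cells of a type and less RNA per cell cannot be told apart.

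HSPD1 and HSPE1, the genes of HSP60 and its lid HSP10, lie head to head on chromosome 2, and their RefSeq promoter windows (GRCh38.p14, from 250 bases before to 50 bases after the start) are shown because these partners fell together. Capitals mark the canonical E-box CACGTG, the hexamer that MYC and MAX bind and that Omomyc can also occupy. HSPD1 has 2 windows, and the 1 shown was picked because it holds CACGTG, which the other does not. The windows are chr2:197500225-197500524 on the minus strand for HSPD1 and chr2:197500129-197500428 on the plus strand for HSPE1, each 5′ to 3′ along its gene.
HSPD1: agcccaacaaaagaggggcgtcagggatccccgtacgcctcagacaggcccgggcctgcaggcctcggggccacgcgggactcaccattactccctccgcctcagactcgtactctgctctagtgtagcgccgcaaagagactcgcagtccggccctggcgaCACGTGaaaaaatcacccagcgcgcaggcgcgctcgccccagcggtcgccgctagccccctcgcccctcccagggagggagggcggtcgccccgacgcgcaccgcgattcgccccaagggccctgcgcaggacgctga
HSPE1: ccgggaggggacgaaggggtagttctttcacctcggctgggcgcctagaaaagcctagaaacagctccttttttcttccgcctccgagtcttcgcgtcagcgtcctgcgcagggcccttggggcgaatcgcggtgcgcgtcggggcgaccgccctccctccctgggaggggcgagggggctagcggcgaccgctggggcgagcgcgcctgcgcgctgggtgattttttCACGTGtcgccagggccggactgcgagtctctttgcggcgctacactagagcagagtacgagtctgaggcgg
The gene starts of these 2 windows are 105 bases apart and the windows share 204 bases. The capitals in the pair are the same site, chr2:197500357-197500362, whose near end lies 83 bases before the HSPD1 start and 17 bases before the HSPE1 start. For comparison, the windows of HSPA9, which holds a CACGTG and did not pass the test, and of TRAP1, which fell and holds none, follow from chr5:138575352-138575651 and chr16:3717475-3717774, both on the minus strand.
HSPA9: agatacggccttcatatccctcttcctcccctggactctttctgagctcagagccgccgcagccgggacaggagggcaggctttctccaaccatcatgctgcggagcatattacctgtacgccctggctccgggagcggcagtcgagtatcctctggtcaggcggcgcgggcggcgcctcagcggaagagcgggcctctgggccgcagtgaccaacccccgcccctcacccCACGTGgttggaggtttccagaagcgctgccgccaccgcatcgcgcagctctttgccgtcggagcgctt
TRAP1: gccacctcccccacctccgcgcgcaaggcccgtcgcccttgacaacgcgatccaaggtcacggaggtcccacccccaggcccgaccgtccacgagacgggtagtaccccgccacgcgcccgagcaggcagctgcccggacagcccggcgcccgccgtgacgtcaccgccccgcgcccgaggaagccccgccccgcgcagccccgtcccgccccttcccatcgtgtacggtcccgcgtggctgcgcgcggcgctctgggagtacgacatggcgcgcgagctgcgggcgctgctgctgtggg
The near end of the HSPA9 match lies 14 bases before the start.

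RefSeq windows of 300 bases were used for 38 of the 43 genes, all but TOMM5, GRPEL1, TIMM8B, CLPP and YME1L1. CACGTG, a palindrome that reads the same on either strand, occurred in those of 7 genes (18.4%), namely HSPD1, HSPE1, HSPA9, LONP1, TIMM10, TIMM8A and TOMM20. It occurred in windows of 8.77% of all 27305 genes in that table, and in 7.26% of all windows. These shares were not matched for base composition or limited to genes on the arrays, and their difference was not tested. HSPD1 and HSPE1 share 1 site, which is counted for both genes. Of the 7, HSPD1 and HSPE1 fell and the other 5 had log2 fold changes between -0.34 and -0.04. The median was -0.16 over the 7 and -0.10 over the 27 measured genes with a window and no match. The NRF1 palindrome, the consensus of a regulator of mitochondrial genes, occurred in a window of 1 gene, LONP1 (2.63% of 38, against 1.52% of all genes). A match is a string of letters, and binding was not measured here.

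The matrix folding chaperones had the largest changes. HSPD1 forms the HSP60 chamber in which imported proteins fold. It read 9.66, 9.89, 9.82 and 9.84 in the vehicle tumours and 7.54, 6.80, 7.34 and 7.55 in the doxycycline tumours. The groups were far apart, with doxycycline replicate 2 the lowest array. HSPD1 was 5.64-fold lower, with a log2 fold change of -2.50 ± 0.20 (SE; limma adjusted p = 6.07e-05). HSPE1, the lid of the chamber, read 8.63, 8.90, 8.89 and 8.62 with vehicle and 7.52, 7.39, 7.37 and 7.24 with doxycycline. No array of either group came within 1 log2 unit of the other group. HSPE1 was 2.61-fold lower (-1.38 ± 0.16, SE; limma adjusted p = 0.000432). RefSeq names 22 pseudogenes after HSPD1 and 28 after HSPE1, and whether the probes also read their transcripts was not tested.

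TRAP1 is the mitochondrial member of the HSP90 family. It read 6.83, 6.09, 6.11 and 6.56 with vehicle and 4.11, 4.40, 4.35 and 4.37 with doxycycline. The vehicle tumours were more widely spread and the doxycycline tumours were close together, all below the array medians. TRAP1 was 4.26-fold lower, at -2.09 ± 0.21 (SE; limma adjusted p = 0.000165). These 3 genes kept their calls in all 18 alternative settings, including without each tumour in turn.

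**Figure D1:**
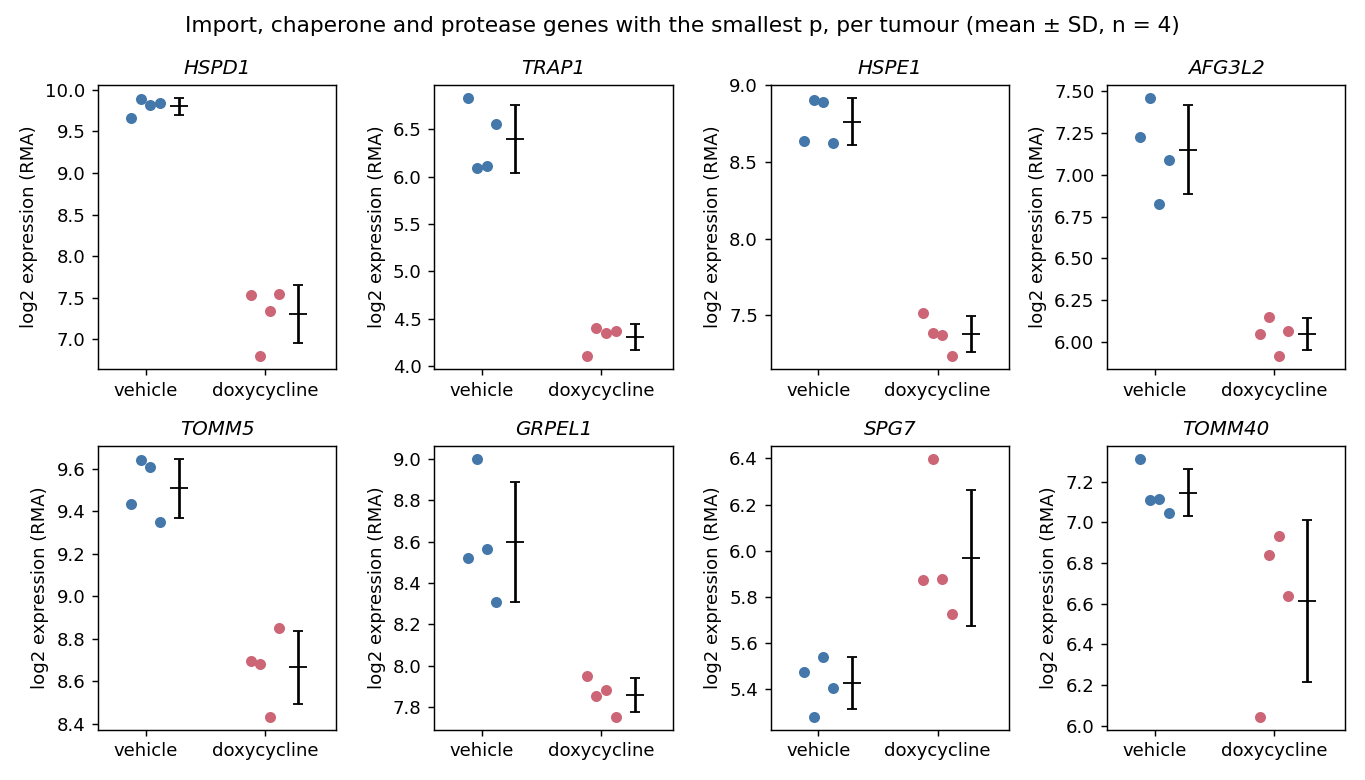
Log2 expression (RMA, vertical axes differ between panels and do not start at 0) of the 8 genes with the smallest p in each vehicle (blue) and doxycycline (red) tumour, with group mean ± SD (n = 4) in black. The first 6 genes fell, whereas SPG7 and TOMM40 have groups that do not overlap but did not pass.

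The import motor sits on the matrix side of the inner membrane. GRPEL1, the exchange factor that releases ADP from the motor's HSP70, read 8.52, 9.001, 8.56 and 8.31 with vehicle and 7.95, 7.85, 7.88 and 7.75 with doxycycline. Vehicle replicate 2 was the highest array, and the doxycycline arrays lay within 0.20 of each other and below all vehicle arrays. GRPEL1 fell by 0.74 ± 0.19 on the log2 scale (SE; limma adjusted p = 0.0282). This call ended without vehicle replicate 1 or 3 or doxycycline replicate 2, 3 or 4 (limma adjusted p of 0.0610, 0.0666, 0.0677, 0.0616 and 0.0660). It also ended after ribosomal protein centring (limma adjusted p = 0.109).

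Other parts of the motor did not pass. Its HSP70, encoded by HSPA9, read 9.65, 9.86, 9.72 and 9.72 with vehicle and 9.49, 9.52, 9.70 and 9.64 with doxycycline. These ranges overlap, and the change was -0.15, with a 95% interval of -0.49 to 0.20. GRPEL2, the second exchange factor, read 7.74, 7.59, 7.35 and 7.51 with vehicle and 6.97, 7.39, 7.40 and 7.17 with doxycycline. The groups overlap, and the change was -0.31 (limma adjusted p = 0.324). DNAJC19, a J-domain cofactor of the motor with 9 named pseudogenes, was at -0.16, and TIMM44, which ties the motor to the channel, was at -0.13.

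Of the 7 measured genes of the outer membrane translocase and its helpers, TOMM5 fell. TOMM5, a small subunit that supports assembly of the complex, read 9.43, 9.64, 9.61 and 9.35 with vehicle and 8.70, 8.68, 8.43 and 8.85 with doxycycline. The lowest vehicle tumour lay above the highest doxycycline tumour. TOMM5 was 1.79-fold lower (-0.84 ± 0.17, SE, limma adjusted p = 0.00964) and kept its call in all 18 alternative settings. Its limma adjusted p was between 0.0139 and 0.0341 when a tumour was left out. With replicate number as a block it was 0.0481, close to the threshold.

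TOMM40 encodes the channel itself. It read 7.31, 7.11, 7.12 and 7.05 with vehicle and 6.04, 6.84, 6.93 and 6.64 with doxycycline. All doxycycline arrays were lower, and doxycycline replicate 1 was the lowest. The change of -0.53 ± 0.21 (SE) did not pass (limma adjusted p = 0.154), and was -0.34 without doxycycline replicate 1. TOMM34, a cytosolic co-chaperone that hands over precursors, read 8.10, 7.86, 7.94 and 7.73 with vehicle and 7.66, 7.60, 7.71 and 7.42 with doxycycline. The groups are separated by a narrow gap, and its change of -0.31 did not pass (limma adjusted p = 0.289).

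The receptors showed no call. TOMM20, which binds presequences, was at -0.15 and TOMM22, the central receptor, at -0.14. TOMM70, the receptor for carrier precursors and their chaperones, read 7.93, 7.32, 7.96 and 8.07 with vehicle and 8.06, 8.12, 8.09 and 8.06 with doxycycline. Vehicle replicate 2 stood below the other 7 arrays, and the change was 0.26 (limma adjusted p = 0.471). The small subunit TOMM7 was at -0.18. The 3 genes of outer membrane assembly, which fold beta-barrel proteins such as the channel, did not pass either. SAMM50, the core of that complex, was at -0.30, MTX1 at 0.23 and MTX2 at 0.32. MTX2 read 6.32, 6.09, 6.51 and 6.49 with vehicle and 6.98, 6.30, 6.85 and 6.55 with doxycycline, with overlap (limma adjusted p = 0.378).

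**Figure D2:**
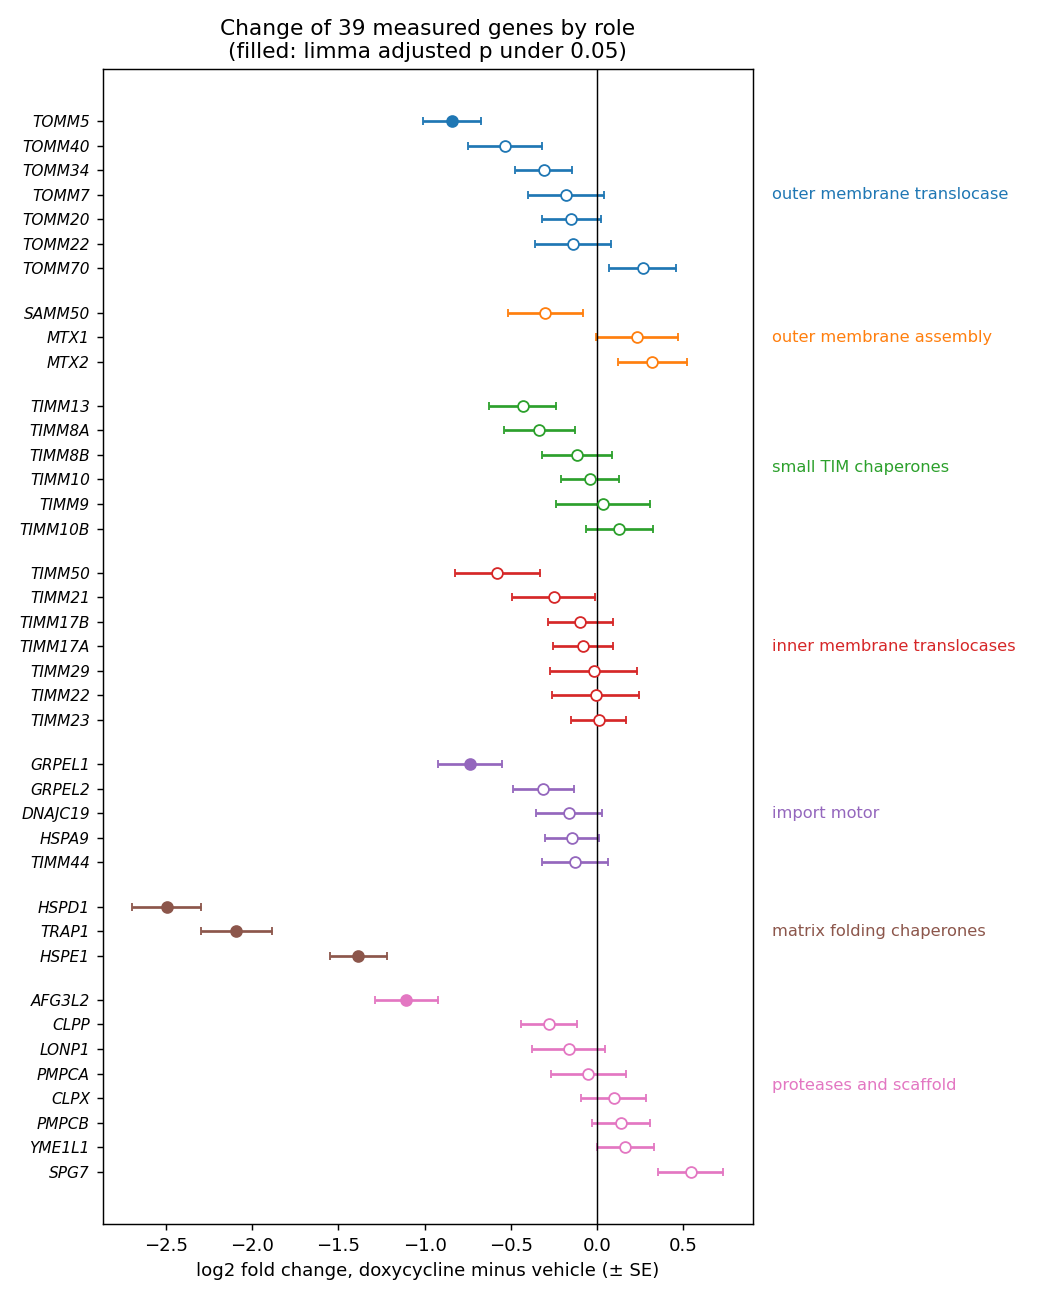
Log2 fold change (horizontal axis, doxycycline minus vehicle, ± SE) of the 39 measured genes grouped by role, with filled points for genes that passed limma's test. The 3 matrix folding chaperones lie between -2.50 and -1.38, and AFG3L2, TOMM5 and GRPEL1 are the other filled points.

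None of the 6 small TIM genes and none of the 7 inner membrane translocase genes passed limma's test, and 1 gene in each role had an unadjusted p under 0.05, where 23.9% of all genes did. Among the small TIMs, ring-forming chaperones of the intermembrane space, TIMM13 read 8.44, 8.34, 7.81 and 7.96 with vehicle and 7.54, 7.79, 7.60 and 7.90 with doxycycline. The groups overlap between vehicle replicate 3 and doxycycline replicate 4, and the change was -0.43 (limma adjusted p = 0.209). Its partner TIMM8A was at -0.34, TIMM8B at -0.12, TIMM10 at -0.04, TIMM9 at 0.03 and TIMM10B at 0.13. In the TIM23 complex, the receptor TIMM50 read 8.02, 7.43, 7.94 and 7.16 with vehicle and 7.10, 6.83, 7.50 and 6.80 with doxycycline. Its groups overlap, and the change was -0.58 (limma adjusted p = 0.178). The channel gene TIMM23, which has a near-identical copy in TIMM23B, was at 0.01 with a 95% interval of -0.34 to 0.36. TIMM17A and TIMM17B, alternative subunits of that channel, were at -0.08 and -0.10, and TIMM21, which links it to the respiratory chain, was at -0.25. TIMM22, the carrier insertase, and its subunit gene TIMM29 were at -0.01 and -0.02.

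Of the 8 measured genes of proteases and processing, AFG3L2 fell. AFG3L2 is a subunit of the matrix-facing m-AAA protease of the inner membrane. It read 7.23, 7.46, 6.83 and 7.09 with vehicle and 6.05, 6.15, 5.92 and 6.07 with doxycycline. All doxycycline arrays were lower than all vehicle arrays, with little spread. AFG3L2 was 2.15-fold lower (-1.11 ± 0.18, SE; limma adjusted p = 0.00302) and kept its call in all 18 alternative settings.

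SPG7, or paraplegin, is the partner of AFG3L2 in the mixed form of the m-AAA protease. It read 5.48, 5.28, 5.54 and 5.41 with vehicle and 5.87, 6.40, 5.88 and 5.73 with doxycycline. All doxycycline arrays were higher, with doxycycline replicate 2 the highest. The change of 0.54 ± 0.19 (SE) did not pass (limma adjusted p = 0.0992), and passed after ribosomal protein centring (0.74, limma adjusted p = 0.0359). It was the highest log2 fold change of the 39 genes.

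The other proteases did not pass. CLPP, the peptidase of the ClpXP protease, was at -0.28 with groups that do not overlap, and CLPX, its unfoldase, was at 0.09. LONP1, the main matrix protease for damaged proteins, was at -0.16, and YME1L1, the protease facing the intermembrane space, was at 0.16. PMPCA and PMPCB, the subunits that cut off presequences, were at -0.05 and 0.14. Over all roles, 33 measured genes did not pass, of which 20 lay within 0.2 of 0 on the log2 scale. The 95% intervals of the 33 extended by 0.34 to 0.60 on each side of the estimate. Without adjustment over all genes, 4 of these intervals excluded 0. The interval of TIMM50 reached down to -1.12 and that of SPG7 up to 0.96, so changes of that size are not excluded for these genes.

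**Figure D3:**
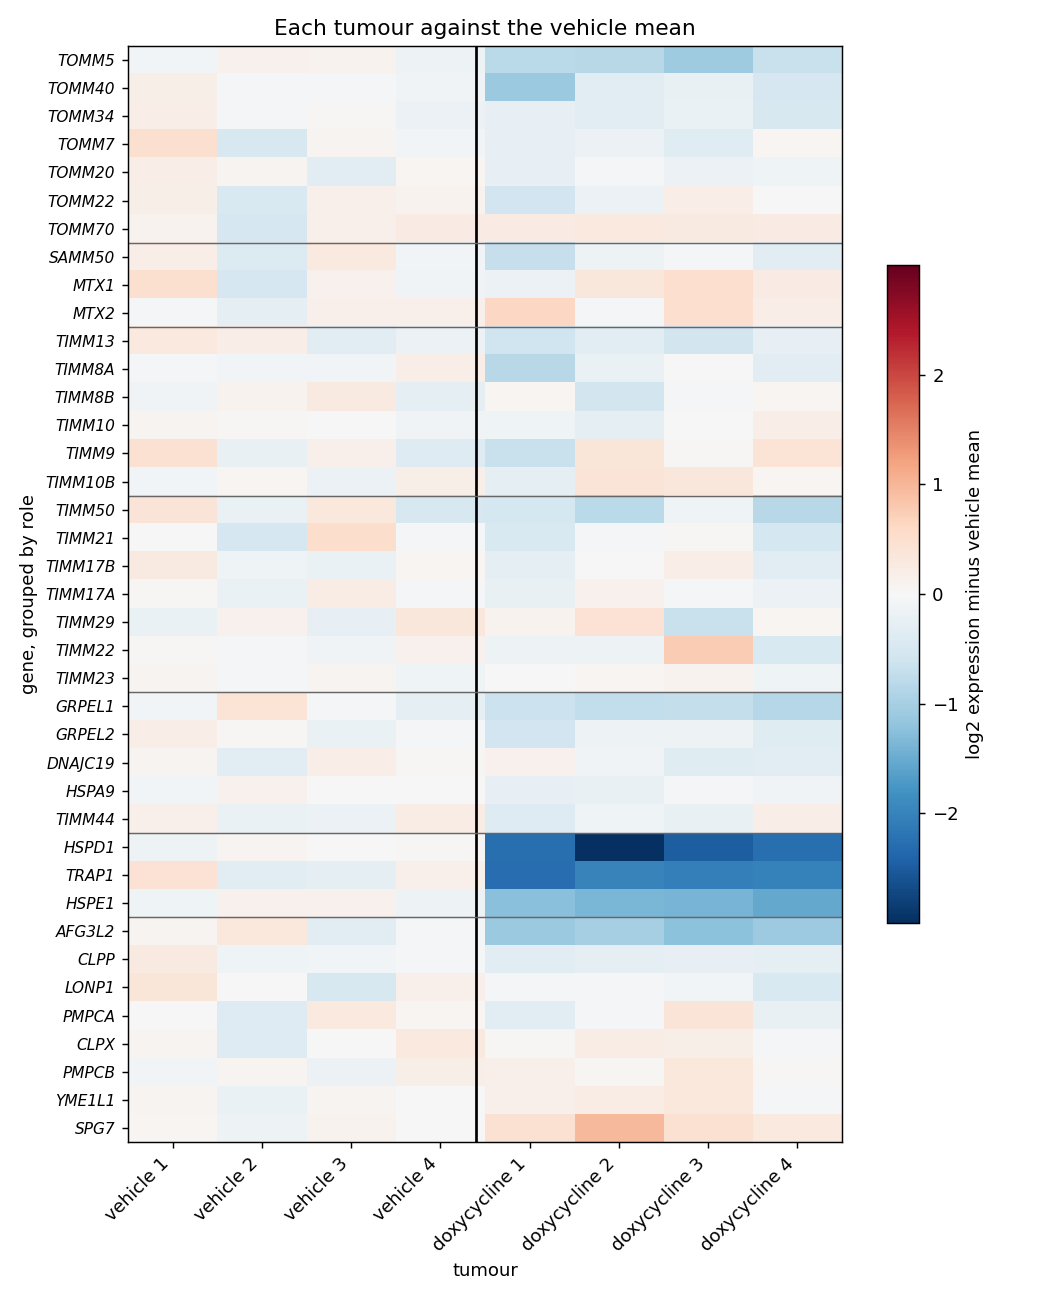
Log2 expression of the 39 genes (rows, by role) in each tumour (columns), minus the gene's vehicle mean, with blue for lower and red for higher. HSPD1, TRAP1, HSPE1 and AFG3L2 are blue in all 4 doxycycline tumours, and most other rows are pale in both groups.

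Regardless of the test, all doxycycline arrays lay below all vehicle arrays for 9 of the 39 genes (HSPD1, TRAP1, HSPE1, AFG3L2, TOMM5, GRPEL1, TOMM40, TOMM34 and CLPP) and above them for SPG7. Over all genes the shares were 8.83% and 8.86%. Averaged over the 39 genes, vehicle tumours lay at 7.57 to 7.79 and doxycycline tumours at 7.27 to 7.48. That average includes the 6 genes that fell. The medians over the 39 genes overlapped, at 7.59 to 7.93 in vehicle and 7.54 to 7.75 in doxycycline tumours. Vehicle replicate 2 had the lowest vehicle value for 16 of the 39 genes, and doxycycline replicate 1 the lowest doxycycline value for 16. When vehicle replicate 2 was dropped along with either doxycycline replicate 4 or doxycycline replicate 1, 5 of the 39 genes fell, all but GRPEL1 of the 6.

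Pairs of genes that are partners in a complex or related copies (paralogs) were then set against each other. The within-tumour difference of their log2 values was tested with an exact two-sided permutation test over the 4 and 4 tumours. Of 12 pairs, 11 were measured on both sides. The smallest p that 4 against 4 can give is 0.0286. At that floor no single pair could pass Benjamini-Hochberg adjustment over the 11 by itself. None of the pairs passed, which therefore does not show that partners changed equally. HSPD1 exceeded HSPE1 by 1.02, 0.98, 0.93 and 1.22 in the vehicle tumours and by 0.02, -0.59, -0.03 and 0.31 in the doxycycline tumours. The difference was thus lower in every doxycycline tumour than in any vehicle tumour, and lower by 1.11 between the group means (exact p = 0.0286, adjusted p = 0.105). AFG3L2 exceeded SPG7 by 1.75, 2.18, 1.29 and 1.68 with vehicle and by 0.18, -0.25, 0.04 and 0.34 with doxycycline. No value of either group reached the other, and the mean change was -1.65 (exact p = 0.0286, adjusted p = 0.105). HSPA9 exceeded GRPEL1 by 1.13, 0.86, 1.15 and 1.41 with vehicle and by 1.54, 1.66, 1.82 and 1.89 with doxycycline, a change of 0.59 without overlap (exact p = 0.0286, adjusted p = 0.105). The values within a tumour are not ratios of the transcripts, since probes of different genes differ in response.

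The remaining pairs had exact p between 0.0571 and 0.943. CLPP against CLPX changed by -0.37 (exact p = 0.0571) and GRPEL1 against GRPEL2 by -0.42 (exact p = 0.0857). TIMM8A against TIMM8B, PMPCA against PMPCB, MTX1 against MTX2, TIMM17A against TIMM17B, TIMM9 against TIMM10 and TIMM8A against TIMM13 changed by -0.22 to 0.10, with groups that overlap.

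**Figure D4:**
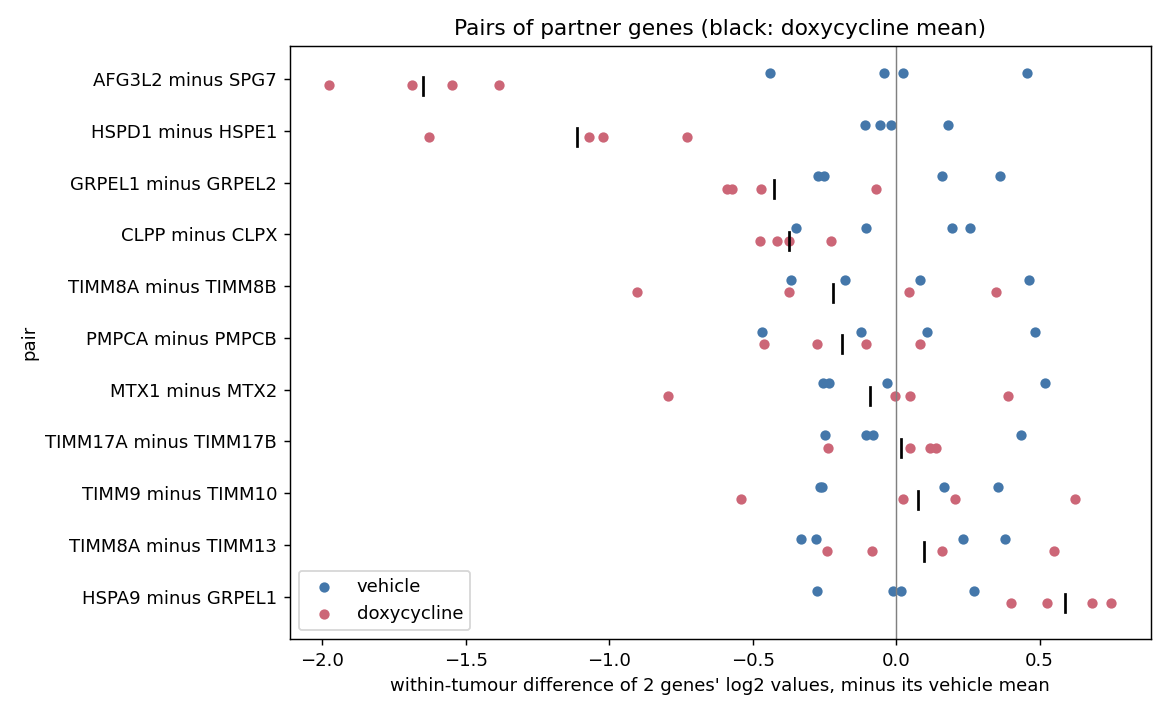
Within-tumour difference of the log2 values of 2 partner or paralog genes, minus its vehicle mean (horizontal axis), for 11 pairs. Vehicle tumours are blue, doxycycline tumours are red and the doxycycline mean is a black line. The groups do not overlap for AFG3L2 minus SPG7, HSPD1 minus HSPE1 and HSPA9 minus GRPEL1.

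Other mitochondrial genes were read from lists for context. For comparison, 6.03% of all genes tested fell, and 11.1% of those left without the dimmest 40% did. Of 5 measured porins and carriers of the membranes, the 3 porin genes fell. VDAC1, the most studied porin of the outer membrane, was 3.50-fold lower (-1.81 ± 0.19, SE; limma adjusted p = 0.000219). VDAC3 was 2.45-fold lower (-1.29 ± 0.18, SE; limma adjusted p = 0.00136), and VDAC2 fell by 0.59 ± 0.16 (SE; limma adjusted p = 0.0362). The call of VDAC2 ended in each of the 8 fits without a tumour (limma adjusted p of 0.0515 to 0.0980) and after ribosomal protein centring (0.209). Porins are themselves inserted through the TOM and assembly complexes.

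Of 11 other import factors, 2 fell and 0 rose, with a median of 0.09 and 8 of the 11 above 0. MTCH2, an outer membrane insertase, fell by 0.85 ± 0.20 and BCS1L, an AAA protein that assembles respiratory complex III, by 0.74 ± 0.20 (SE; limma adjusted p of 0.0217 and 0.0388). After ribosomal protein centring, or without vehicle replicate 1 or 3 or doxycycline replicate 2 or 4, 0 of the 11 fell, and without vehicle replicate 4 or doxycycline replicate 3, 1 did. TIMMDC1 had the highest change of the 11, at 0.56, and did not pass (limma adjusted p = 0.0704). In 4 settings 1 of the 11 rose. These were median centring, ribosomal protein centring, leaving out the dimmest 40% of genes, and limma's trended and robust prior. CHCHD4 and GFER, the redox relay that traps small TIMs in the intermembrane space, were at -0.32 and 0.03. Of 12 other proteases and scaffolds, IMMP2L, a subunit of the inner membrane peptidase, fell by 1.01 ± 0.22 (SE; limma adjusted p = 0.0157), from a vehicle mean of 3.61 that is below the array medians. Its call ended after ribosomal protein centring (limma adjusted p = 0.0511) and without vehicle replicate 2 together with doxycycline replicate 4 (0.0649) or doxycycline replicate 1 (0.0566). PHB1, the prohibitin partner of the unmeasured PHB2, was at 0.00 (limma adjusted p = 0.997).

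Of 8 cristae-organising genes, MICOS13 fell by 0.81 ± 0.22 (SE; limma adjusted p = 0.0395), and the list median was -0.36. All 8 were below 0. The call of MICOS13 ended without any of the 4 vehicle tumours and without doxycycline replicate 3 or 4 (limma adjusted p of 0.0557 to 0.114), and after ribosomal protein centring (0.121). Among mitochondrial ribosomal proteins 9 of 74 fell (12.2%) and 0 rose, with a median of -0.21. Of all genes tested 6.03% fell, and 11.1% of those left without the dimmest 40%. MRPS34 and MRPL15, of the small and large subunits, were at -1.19 and -1.20 (limma adjusted p of 0.0010 and 0.00216). Leaving out vehicle replicate 3 gave 4, and ribosomal protein centring gave 5. Of 14 measured cytosolic chaperones, 5 fell (35.7%), with a median of -0.39. HSP90AA1, the inducible cytosolic HSP90, was at -0.79 and CCT2, a subunit of the cytosolic chaperonin, at -0.77 (limma adjusted p of 0.0100 and 0.0145). The count was 1 after ribosomal protein centring, 2 without vehicle replicate 1 or doxycycline replicate 2, and 3 without vehicle replicate 3 or doxycycline replicate 1 or 4. No test compared these lists with the import genes.

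**Figure D5:**
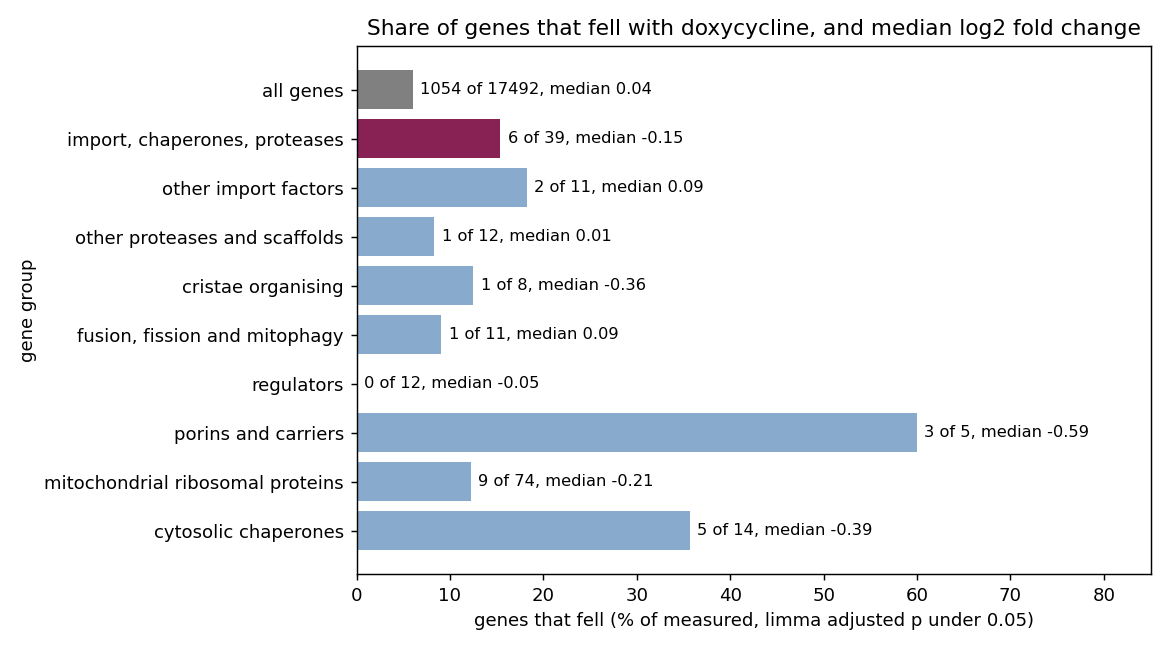
Share of measured genes that fell with doxycycline (bars, %, limma adjusted p under 0.05) in the import, chaperone and protease genes, in related gene groups and in all genes, with counts and median log2 fold changes beside the bars. The import group is at 15.4% and all genes at 6.03%, or 11.1% without the dimmest 40% of genes (not drawn). Groups of 5 to 14 genes move by many percent with 1 gene.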

How the data were processed

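RNA of 8 tumours, 4 per group by the sample titles, was measured on 1 array each. The deposited log2 values were made with RMA, per the submitters' processing notes, which corrects background, quantile-normalises arrays and summarises probes. Its version, the build and any filter: not given in the sources used here. Signal over background is unknown, quantile normalisation can hide a shift of most genes, and the number of arrays limits precision. Of 18569 rows, 17511 had 1 gene symbol in the platform annotation, 0 several and 1058 none; the row with the highest mean was kept for 17 genes with more than 1 row. Doxycycline was compared with vehicle by limma 3.58.1 in R 4.3.3 (lmFit, eBayes, two-sided, Benjamini-Hochberg over 17492 genes, threshold 0.05). Positive log2 fold changes mean higher with doxycycline; SEs are moderated, from limma. The procedure was tested on simulated data. Figures used Python 3.11.15. Promoters came from RefSeq. A planned comparison of protein sequences was not run.

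Members and lists were chosen with earlier results of these data known. Values per array are given for the 12 members with the smallest p, the 3 largest rises and pairs at the smallest exact p. Of the context lists, genes past the threshold are named, at most 6 per list. CHCHD4, GFER, TIMMDC1, PHB1, BNIP3L, TFAM, NRF1 and ATF4 were named after their values were seen. Titles call the samples biological replicas.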

Additional observations from a re-analysis of the deposited data

Results flagged for a closer look

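In 78 groups of 4 arrays, 2 for each measured gene, 3 held an array far from the other 3, where chance flags about 1 in 20. TOMM22 was at 8.82 in vehicle replicate 2, against 9.37 to 9.44 in the other vehicle tumours. TIMM8B was at 7.52 in doxycycline replicate 2, against 8.02 to 8.12. LONP1 was at 5.88 in doxycycline replicate 4, against 6.26 to 6.29. None of these 3 genes passed limma's test.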

How the results depend on the processing

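HSPD1, TRAP1, HSPE1, AFG3L2 and TOMM5 kept direction and call in all 18 settings, and the count of members that fell was 5 or 6 in each, with 5 under the replicate block. Pairing by replicate number was not visible in these values, which cannot exclude it. Deviations of same-numbered tumours from their group means correlated at -0.16 to 0.035, and the highest correlation was between different numbers (0.23). The block, which costs residual degrees of freedom, gave 791 falling and 502 rising genes, against 1054 and 830, 1 falling cytosolic chaperone and 5 falling mitochondrial ribosomal proteins, and GRPEL1 did not pass (limma adjusted p = 0.0724). Centring on 50 ribosomal protein genes, which raises every gene by 0.20, gave 1 rising member, 1524 rising genes and a median of 0.052 for the members. With 1 tumour left out, 503 to 727 genes rose and 748 to 1057 fell, with fewer arrays in each fit. Uncalled genes near 0 changed sign. With ribosomal centring, TOMM7 was at 0.019, TOMM20 at 0.051, TOMM22 at 0.063, TIMM8B at 0.085, TIMM10 at 0.16, TIMM17A at 0.12, TIMM17B at 0.10, TIMM22 at 0.19, TIMM29 at 0.18, TIMM44 at 0.072, DNAJC19 at 0.037, HSPA9 at 0.052, LONP1 at 0.036 and PMPCA at 0.15. With median centring, TIMM22 and TIMM29 were at 0.020 and 0.0077, with array weights at 0.012 and 0.025, and with quantile normalization on top TIMM23 was at -0.047. Without vehicle replicate 2 and doxycycline replicate 4 together, TIMM9 and TIMM22 were at -0.16 and 0.12, and without vehicle replicate 2 and doxycycline replicate 1 together TIMM22, TIMM23 and CLPX were at 0.021, -0.0062 and -0.012; these settings were chosen after seeing the data. Across the fits without 1 tumour, sign changes gave ranges of TOMM22 from -0.29 to 0.0050, TIMM8B from -0.20 to 0.026, TIMM9 from -0.092 to 0.27, TIMM10 from -0.12 to 0.032, TIMM22 from -0.26 to 0.14, TIMM23 from -0.032 to 0.058, TIMM29 from -0.17 to 0.20, CLPX from -0.034 to 0.19, PMPCA from -0.20 to 0.050, TIMM17A minus TIMM17B from -0.067 to 0.16, TIMM8A minus TIMM8B from -0.41 to 0.0078, TIMM9 minus TIMM10 from -0.10 to 0.28, TIMM8A minus TIMM13 from -0.056 to 0.22 and MTX1 minus MTX2 from -0.25 to 0.15. The cause of single sign changes was not tested.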

Other observations

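Among 11 measured genes of mitochondrial fusion, fission and mitophagy, BNIP3, a hypoxia-induced mitophagy receptor, fell and the other 10 did not pass. BNIP3 read 9.64, 10.18, 9.70 and 10.22 with vehicle and 7.67, 7.45, 7.76 and 7.71 with doxycycline. It was 4.89-fold lower (-2.29 ± 0.19, SE; limma adjusted p = 6.86e-05). Its relative BNIP3L was at 0.10 (limma adjusted p = 0.817), with groups that overlap. Whether the 2 genes changed by different amounts was not tested.

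Of 12 measured regulators of mitochondrial genes and of the mitochondrial stress response, 0 passed limma's test and 2 (16.7%) had an unadjusted p under 0.05, against 23.9% of all genes. TFAM, which packages mitochondrial DNA, was at -0.44 and NRF1 at -0.56, with all doxycycline arrays below all vehicle arrays for each (limma adjusted p of 0.163 and 0.0857). Such separation was found for 8.83% of all genes tested. ATF4, the integrated stress response factor, was at -0.28 (limma adjusted p = 0.405), and its groups overlap.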
